A study of Mus musculus with 12 samples.

Results

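Tumors from mice given IL-10-Fc were compared with tumors from mice given an antibody against CSF1R (anti-CSF1R), gene by gene, with no combination agent in the contrast. The members were the 6 libraries that the labels place in these groups, 3 for IL-10-Fc (replicates 2, 4 and 7) and 3 for anti-CSF1R (replicates 4, 6 and 8), out of 12 in the series. All mice were young adult Balb/c animals, per the study's methods, and carried 4T1, a mouse mammary carcinoma line injected into the mammary gland, and treatment began when tumors had reached 100 mm3. IL-10-Fc is human IL-10 joined to an antibody Fc part, and anti-CSF1R is an antibody that blocks the mouse receptor. The remaining libraries, 3 from mice given control IgG and 3 from mice given BF10, the fusion of both agents, entered the model fit and served as reference levels. The labels give 6 doses per mouse while the study's methods for the sequenced tumors give 4, so the exact number of doses is uncertain. RNA came from whole pieces of tumor, so a lower level in a sample can come from fewer cells of a type or from less RNA per cell, and these cannot be told apart.

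CSF1R is the receptor for the growth factors CSF1 and IL-34, and most tissue and tumor macrophages depend on it for survival and differentiation. IL-10 signals through a receptor made of IL10RA and IL10RB to STAT3. It restrains inflammatory cytokine production by macrophages and can act on CD8+ T cells in tumors. Osteoclasts, the bone-resorbing cells, belong to the same lineage as macrophages and also need CSF1R. The contrast asks how tumors exposed to each agent alone differ, with IL-10-Fc leaving CSF1R unblocked.

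The genes that passed the test were all higher in the IL-10-Fc tumors, and 5 of the 16 macrophage genes listed were among them. Of 15504 genes tested, 84 were higher in IL-10-Fc, which is 0.542% of those tested, and 0 were lower (0%). A gene was called at a Benjamini-Hochberg adjusted p below 0.05 and at least a 1.5-fold difference in limma, fitted on log2(TPM + 1). TPM here is the deposited FPKM rescaled so that each library sums to 1000000. At an unadjusted p below 0.05, 492 genes were higher and 60 were lower. The called differences began at 1.37 on the log2 scale and had a median of 2.33. The median standard error over all genes was 0.43, so this design calls only large differences. Groups of values did not overlap for any of the 84 genes. Of all genes tested, 5.9% had every IL-10-Fc library higher and 1.6% had every IL-10-Fc library lower. The 84 were picked by p and fold in the same libraries, so their lack of overlap is no separate result. Over all genes the median difference was 0.11, and it became −0.05 with median of ratios scaling and −0.03 with TMM scaling, so small differences near these values have no fixed sign.

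**Figure D1:**
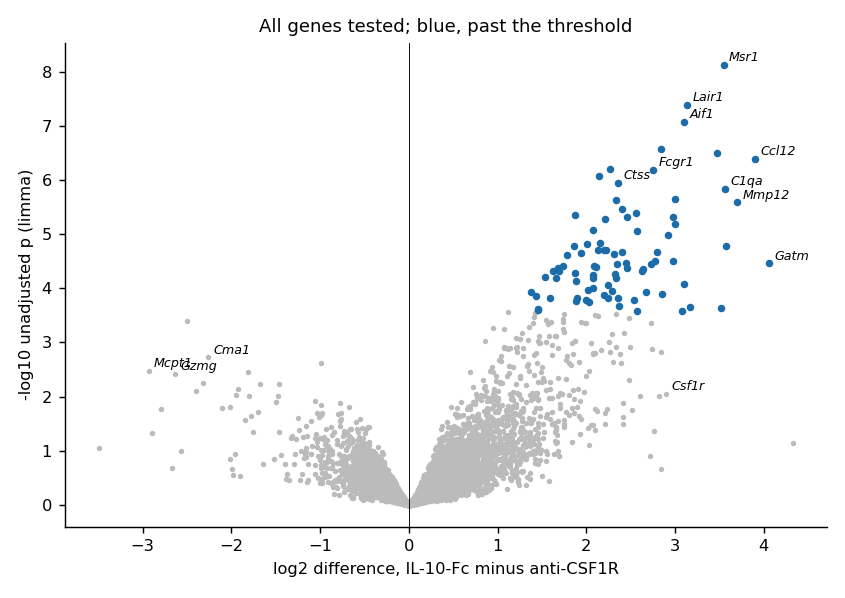
Each point is 1 of 15504 genes, with the log2 difference between IL-10-Fc and anti-CSF1R tumors on the x axis and −log10 of the unadjusted limma p on the y axis. The 84 genes past the threshold (blue) all lie on the right, and the genes on the left, Mcpt1 and Gzmg among them, stay below the threshold.

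The libraries fell into sets that the treatment labels do not explain. IL-10-Fc 7 and anti-CSF1R 8 had deposited FPKM sums of 782919 and 921581, and the other 4 compared libraries had sums between 609695 and 648413. The same pair had a larger share of ribosomal protein transcripts (21.1% and 25.4% of TPM against 14.3% to 15.3%) and of mitochondrial transcripts (5.90% and 8.66% against 3.14% to 3.97%). Sequencing depth, estimated from the size of 1 read in short genes, was alike at 24400000 to 26500000 fragments. Each compared group held 1 higher-sum library, so the sets are balanced in number between them, whereas control IgG held 2. The pair was itself uneven, with the larger sum and larger shares in anti-CSF1R 8. The set term used below treats the pair as alike, so it does not remove this difference. Correlations between libraries of 1 group (0.876 to 0.981, 6 pairs) covered the same range as those between groups (0.877 to 0.975, 9 pairs). The tumor markers Epcam, Krt8 and Krt18 were present in all 6 libraries, Krt8 at 239 to 1090 TPM. The muscle actin gene Acta1 was at 19.1 TPM in IL-10-Fc 7 and at most 0.386 in the other 5, while the skeletal muscle list as a whole summed to 60.9 to 99.9 TPM in the IL-10-Fc libraries and 24.8 to 67.8 TPM in the anti-CSF1R libraries. The casein gene Csn2 was at 0 throughout.

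With the library set as a term in the model, 328 genes were higher in IL-10-Fc (2.12%) and 2 were lower (0.0129%), and these included all 84. The 2 lower ones were the small nucleolar RNAs Snord49b and Gm25108. All 84 genes were also higher in IL-10-Fc within each set, which follows from the groups not overlapping and is no further support. Their median difference was 2.26 between the lower-sum libraries and 2.47 between the higher-sum pair. The number of calls moved with single libraries, to 32 without IL-10-Fc 2, 24 without IL-10-Fc 4, 28 without IL-10-Fc 7 and 25 without anti-CSF1R 6, and 23 genes passed in every one of the 12 fits that left out 1 library. A fit on the 6 libraries alone called 12 genes (11 higher, and Snord49b lower), and sample quality weights called 961 higher and 1009 lower. That fit is the only alternative that called as many genes lower as higher. Among the called genes named here, the most calls were lost without IL-10-Fc 2, IL-10-Fc 4, IL-10-Fc 7 or anti-CSF1R 6, with 24, 19, 23 and 21 of 46 left.

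Csf1r itself, the target of the antibody, stood at 88.8, 89.8 and 36.4 TPM under IL-10-Fc and at 20.6, 14.1 and 1.26 TPM under anti-CSF1R. The groups did not overlap, but in each the higher-sum library was lowest. The control IgG libraries show the same split, with 92.7 TPM in the lower-sum library and 18.8 and 38.4 in the others. The difference of 2.90 (SE 0.91) did not pass in the limma fit (adjusted p = 0.6), and it passed with the set term (adjusted p = 0.0011). Within sets it was 2.32 for the lower-sum and 4.05 for the higher-sum libraries.

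The ligands of CSF1R did not separate the groups. Csf1 was at 124, 105 and 59.1 TPM under IL-10-Fc against 129, 139 and 18.6 under anti-CSF1R (difference 0.39, SE 0.96). Il34 was at 43.0, 40.7 and 24.4 TPM against 45.6, 52.8 and 17.5 (difference 0.00, SE 0.47). The IL-10 side of the contrast was read from mouse transcripts only, since the administered IL-10 is a protein. Il10 mRNA was low in both groups, at 1.37 to 2.33 TPM and 1.87 to 4.55 TPM. Il10ra, the ligand-binding chain, was at 14.2, 16.8 and 8.56 TPM under IL-10-Fc and at 4.73, 3.74 and 0.510 under anti-CSF1R, and it passed only with the set term (difference 1.99, limma adjusted p = 0.35 without and 5.3e-04 with the term). Il10rb, the shared chain, had a difference of 0.78 (SE 0.68). Of 18 genes of the IL-10 receptor and STAT3 response, 0 passed (2 with the set term, Il10ra and Il1rn), and their median of 0.28 turned to −0.04 in the lower-sum libraries.

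Among the other growth factor genes, the GM-CSF receptor chain Csf2ra passed with the set term alone (difference 2.22, adjusted p = 0.0049), from 44.5, 43.1 and 22.0 TPM under IL-10-Fc and 16.5, 10.3 and 1.32 under anti-CSF1R. Its partner Csf2rb had a difference of 1.23 (SE 0.73), Csf2 of 0.22 (SE 0.40) and the G-CSF receptor Csf3r of 0.30 (SE 1.11). Csf3, which encodes G-CSF, was the one member with every anti-CSF1R library higher, at 131, 124 and 320 TPM against 91.6, 63.8 and 109. That difference of −1.0 (SE 0.65) did not pass (limma adjusted p = 1).

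The largest differences belonged to phagocyte enzymes, the C1q chains and surface receptors. Gatm, the rate-limiting enzyme of creatine synthesis (chr2:122594467-122611303, GRCm38), had the largest. It measured 128, 97.1 and 62.0 TPM under IL-10-Fc and 8.62, 6.23 and 1.44 TPM under anti-CSF1R, a ratio of means of 17.6 (log2 difference 4.07, SE 0.60, limma adjusted p = 0.0132). Leaving out IL-10-Fc 2, IL-10-Fc 4 or anti-CSF1R 6 ended that call, at adjusted p = 0.0773, 0.0823 and 0.0557.

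Ccl12, a chemokine that attracts monocytes through CCR2 (chr11:82101845-82103400), was at 58.0, 62.8 and 99.3 TPM under IL-10-Fc and at 5.79, 2.53 and 3.77 under anti-CSF1R. Its difference was 3.90 (SE 0.36, adjusted p = 0.00104). Mmp12, the macrophage elastase (chr9:7344381-7369499), was at 150, 269 and 230 TPM against 9.69, 14.9 and 24.3, a difference of 3.70 (SE 0.41). Both genes passed without any 1 library.

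The C1q chains lie side by side on chromosome 4 and together form the recognition part of complement C1, made in tissues mainly by macrophages. C1qa was at 543, 545 and 459 TPM under IL-10-Fc and 76.1, 49.2 and 20.6 TPM under anti-CSF1R. C1qb was at 366, 351 and 252 TPM against 51.8, 34.0 and 9.54, and C1qc at 397, 384 and 459 TPM against 50.2, 31.9 and 29.5. All 3 chains therefore had their lowest value in anti-CSF1R 8, and their differences of 3.56 (SE 0.37), 3.57 (SE 0.48) and 3.47 (SE 0.31) were nearly the same. C1qb alone of these lost its call without IL-10-Fc 2 (adjusted p = 0.0538) or IL-10-Fc 4 (0.0686).

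Msr1, a scavenger receptor for modified lipoproteins (chr8:39581685-39642673), had the smallest p of all genes. It was at 94.4, 96.6 and 123 TPM under IL-10-Fc and at 7.59, 7.61 and 8.75 TPM under anti-CSF1R (log2 difference 3.55, SE 0.22, limma adjusted p = 1.2e-04). Lair1, an inhibitory collagen receptor, was at 23.7, 22.9 and 26.3 TPM against 2.19, 1.53 and 1.91 (difference 3.14, SE 0.23). Aif1, which encodes the macrophage protein IBA1, was at 89.7, 103 and 108 TPM against 14.9, 10.8 and 7.70 (difference 3.10, SE 0.24). Msr1 and Lair1 were at like levels in the higher-sum and lower-sum libraries of each group, whereas Csf1r was not. Lyz2, lysozyme, was among the most abundant, with 1332, 1949 and 1605 TPM under IL-10-Fc and 254, 181 and 174 under anti-CSF1R (difference 3.00, SE 0.33).

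**Figure D2:**
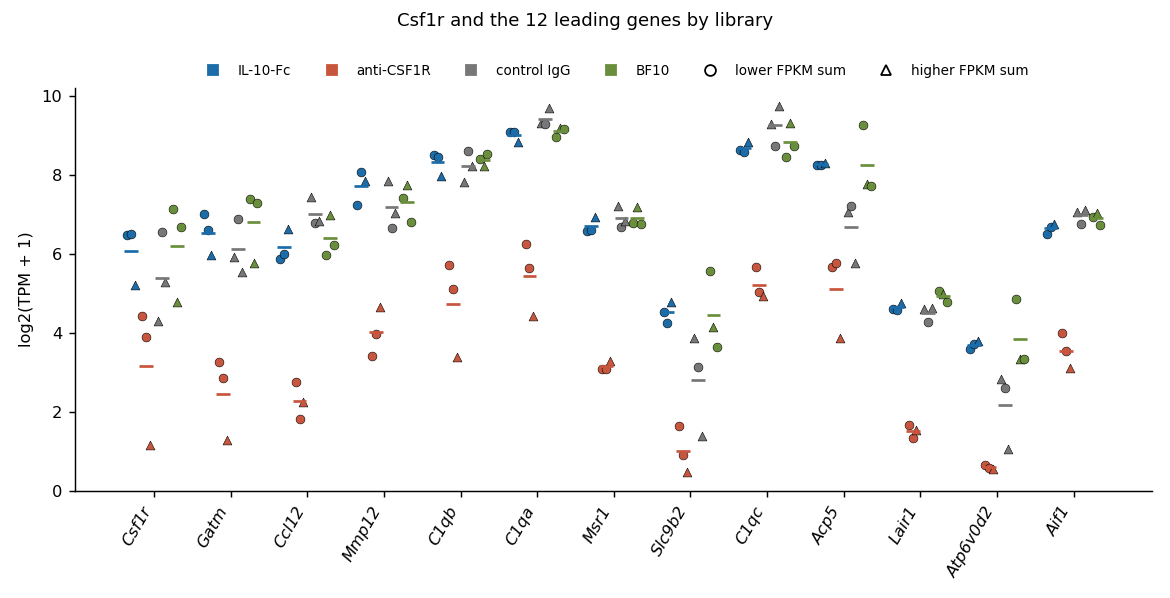
The y axis gives log2(TPM + 1) for Csf1r and the 12 genes with the largest called difference, in all 12 libraries; bars are group means (n = 3) and triangles are libraries with a higher FPKM sum. In each of the 12 called genes the anti-CSF1R points lie below every IL-10-Fc point, and the Csf1r points spread between library sets in all groups.

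In the macrophage list all 16 genes were above 0 (66.6% of all genes were) and 15 did not overlap (5.9% of all genes in that direction). The median was 2.27 against 0.11 over all genes. In the limma fit 5 passed, namely Aif1, Ms4a7 (2.86), the high-affinity Fc receptor Fcgr1 (2.75), the mannose receptor Mrc1 (2.56) and Adgre1 (2.29), which encodes F4/80. With the set term 14 passed, Csf1r, Cx3cr1, Cd68 and Cd163 among them. Adgre1 was at 16.9, 22.9 and 18.6 TPM under IL-10-Fc and at 6.00, 3.20 and 1.44 under anti-CSF1R. Its call ended in 7 of the 12 fits without 1 library (adjusted p = 0.0516 to 0.182), and Ms4a7 in 6 (0.0546 to 0.185). Cd68 was at 101, 114 and 67.8 TPM against 31.2, 21.4 and 6.63 (difference 2.39, limma adjusted p = 0.224). The median of the list fell to 1.73 without anti-CSF1R 8 and rose to 2.68 without anti-CSF1R 4.

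Receptors for the Fc part of IgG were the list with the largest share of calls. Of 6 genes 5 passed (0.542% of all genes tested were called higher), and all 6 were non-overlapping (5.9% of all genes were in that direction). Fcgr1 was at 31.6, 33.9 and 32.3 TPM under IL-10-Fc and 5.98, 4.17 and 2.45 TPM under anti-CSF1R. Fcer1g, the signaling chain shared by the activating receptors Fcgr1, Fcgr3 and Fcgr4, was at 213, 255 and 236 TPM against 54.5, 46.4 and 43.8 (difference 2.26, SE 0.22). Fcgr3, Fcgr4 and the inhibitory Fcgr2b had differences of 2.14 (SE 0.21), 2.07 (SE 0.33) and 1.87 (SE 0.22), and only Fcgr4 lost its call without 1 library (in 5 of 12 fits, adjusted p up to 0.111). The remaining gene was Fcgrt, the neonatal Fc receptor, at 0.69. The median was 2.11, with 2.14 in the lower-sum and 2.07 in the higher-sum libraries, so this group hardly varied with the set.

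Upstream sequence is shown for 7 of the called receptors and markers, chosen because each carries the same short motif. They include 3 of the Fc receptor genes, and the other called members of that list, Fcgr2b and Fcer1g, have no match in the searched window. GAGGAAG is a core that PU.1, the ETS-family factor of myeloid cells encoded by Spi1, can bind. It was searched on both strands (as GAGGAAG or CTTCCTC) in the 250 bases before the first listed start in the RefSeq promoter table (GRCm38.p6), which held 61 of the 84 genes. The motif was there in 21 of the 61 (34.4%), in 11.1% of 10611 tested genes with an entry and in 10.4% of all 27025 entries. A match is a description of letters and says nothing on binding. Each line below gives the 150 bases before the start, 5′ to 3′ on the strand of the gene, with the motif in capitals.
Fcgr1 (chr3:96293970-96294119, minus strand): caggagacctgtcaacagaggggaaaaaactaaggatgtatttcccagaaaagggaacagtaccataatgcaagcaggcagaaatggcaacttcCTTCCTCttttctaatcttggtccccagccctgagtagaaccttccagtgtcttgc
Fcgr3 (chr1:171059404-171059553, minus strand): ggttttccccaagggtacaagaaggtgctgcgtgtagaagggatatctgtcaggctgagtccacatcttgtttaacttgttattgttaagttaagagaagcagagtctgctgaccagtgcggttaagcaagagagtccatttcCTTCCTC
Fcgr4 (chr1:171018776-171018925, plus strand): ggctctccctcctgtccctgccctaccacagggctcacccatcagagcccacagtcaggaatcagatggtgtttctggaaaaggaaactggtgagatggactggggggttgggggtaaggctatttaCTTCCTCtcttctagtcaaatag
Lair1 (chr7:4063205-4063354, minus strand): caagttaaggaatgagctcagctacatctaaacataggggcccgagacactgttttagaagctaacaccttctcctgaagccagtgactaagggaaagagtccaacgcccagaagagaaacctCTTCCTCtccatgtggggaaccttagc
Mrc1 (chr2:14229264-14229413, plus strand): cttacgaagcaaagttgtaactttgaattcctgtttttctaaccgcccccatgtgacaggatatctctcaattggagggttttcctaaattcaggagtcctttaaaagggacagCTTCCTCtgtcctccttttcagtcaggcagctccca
Slamf9 (chr1:172475210-172475359, plus strand): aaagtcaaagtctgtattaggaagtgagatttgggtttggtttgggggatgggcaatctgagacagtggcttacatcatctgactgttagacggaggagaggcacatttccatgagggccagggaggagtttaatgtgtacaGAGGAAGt
Trem2 (chr17:48346251-48346400, plus strand): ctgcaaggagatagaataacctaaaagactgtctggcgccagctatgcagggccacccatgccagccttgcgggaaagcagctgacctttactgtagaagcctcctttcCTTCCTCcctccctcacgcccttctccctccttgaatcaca

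Spi1 was at 46.6, 54.2 and 38.4 TPM under IL-10-Fc and at 13.9, 8.96 and 4.47 under anti-CSF1R, with no overlap. Its difference of 2.33 (SE 0.44) came just short in the limma fit (adjusted p = 0.0528) and passed with the set term (0.0012). Among 16 myeloid transcription factors, Tfec, a relative of MITF, was the 1 that passed (1.79, SE 0.25). Its call ended in 4 of the 12 fits without 1 library (adjusted p = 0.0546 to 0.0823), and 6 factors passed with the set term, including Spi1 and Irf5.

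Of 19 inhibitory and paired receptors of the myeloid surface 17 were above 0 and 3 passed, Slamf9 (3.00, SE 0.37), Clec4a2 (2.98, SE 0.44) and Cd300c2 (2.15). With the set term 11 passed. Slamf9 was at 15.2, 16.1 and 22.2 TPM under IL-10-Fc and at 1.89, 1.48 and 0.770 under anti-CSF1R, and Clec4a2 at 27.2, 32.8 and 55.5 TPM against 3.92, 2.85 and 4.75. Slamf9 passed without any 1 library, and Clec4a2 and Cd300c2 passed in 9 of the 12 fits. Trem2, a lipid-sensing receptor, and its adaptor Tyrobp were called at 2.57 (SE 0.48) and 2.20 (SE 0.38), but 9 and 8 of the 12 fits without 1 library lost them, at adjusted p up to 0.292 and 0.173. The 10 myeloid MS4A genes were all above 0 (66.6% of all genes were), with 4 passing (Ms4a7, Ms4a6c, Ms4a6b and Ms4a6d). Ms4a6c was at 68.1, 81.2 and 78.9 TPM under IL-10-Fc against 13.5, 10.4 and 6.49 (difference 2.84, SE 0.25). It passed in 12 of the 12 fits without 1 library, Ms4a6d in 9 and Ms4a6b in 8. The Ms4a6 genes are close relatives, so reads between them may be shared unequally.

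Complement genes did not move as one group. The 3 C1q chains and properdin (Cfp, 2.41, SE 0.28) passed, and the receptors C5ar1, C3ar1, Itgam and Itgb2 passed with the set term. The remaining 10 of the 18 genes, among them C1ra, C1s1, C4b and C3, which liver, stromal and epithelial cells also make, overlapped between the groups and ranged from −0.28 to 0.61. Cfp was at 71.2, 87.8 and 85.9 TPM under IL-10-Fc and at 17.4, 17.9 and 9.76 under anti-CSF1R.

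Proteases of the lysosome were higher for a few cathepsins and not called for most others. Ctss, a cathepsin of antigen processing, was at 473, 602 and 593 TPM under IL-10-Fc and at 117, 97.8 and 108 under anti-CSF1R (difference 2.35, SE 0.24, limma adjusted p = 0.00175). Ctsc, which activates serine proteases, was at 331, 327 and 238 TPM against 77.0, 44.5 and 20.9 (difference 2.80, SE 0.39). Ctsc lost its call in 3 of the 12 fits without 1 library (adjusted p up to 0.0713). These were the 2 that passed of 16 genes, and 7 passed with the set term. Ctsl and Lamp2 had differences below 0, and the list spanned −0.47 to 2.84. The 7 genes of the phagocyte oxidase, which makes superoxide, had a median of 1.93. None of them passed in the limma fit, and 5 passed with the set term.

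The group plot shows a selection of the lists, sorted by median. Among those drawn, members that passed lie almost wholly in the upper rows, which hold myeloid lists. Some lists that were not drawn also held 1 call at a lower median. They include the NK cell (0.08), arginine and creatine (0.30), matrix metalloproteinase (0.45) and inflammatory cytokine (0.51) lists.

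**Figure D3:**
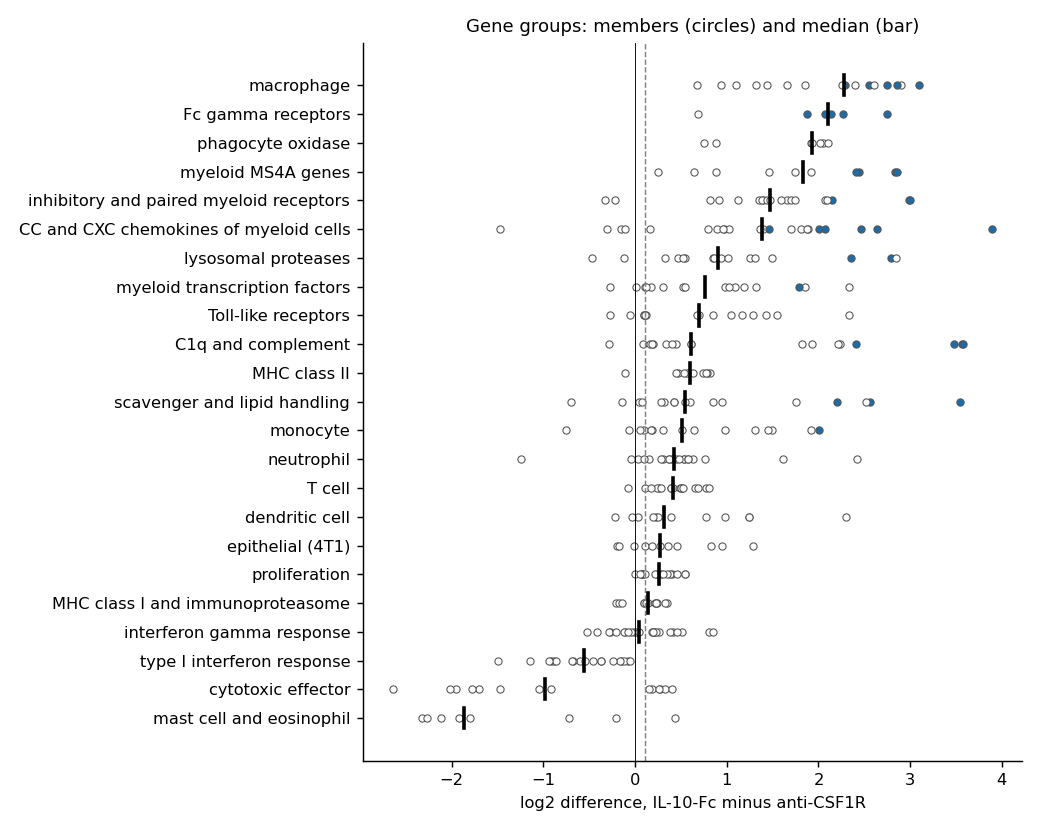
Rows are a selection of the gene lists, ordered by median. Circles are their tested members (filled where past the threshold), bars are medians, and the dashed line is the median over all genes (0.11). The macrophage list has the highest median (2.27) and the mast cell and eosinophil list the lowest (−1.86).

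Of 22 chemokine and receptor genes of myeloid cells 6 passed, all higher in IL-10-Fc (0.542% of all genes tested were), and 4 of the 22 were below 0. Besides Ccl12 they included Pf4 (2.63, SE 0.40), Ccl6 (2.07, SE 0.32), Ccr2 (2.01, SE 0.27) and Cxcl16 (1.46, SE 0.27). Ccr2, the receptor of inflammatory monocytes, was at 35.9, 51.4 and 60.7 TPM under IL-10-Fc and at 13.8, 9.23 and 11 under anti-CSF1R. Ccl12 passed without any 1 library, Ccr2, Pf4 and Ccl6 lost their calls in 3 to 5 such fits (adjusted p up to 0.104), and Cxcl16 in 10 (up to 0.289). Cxcl1, a neutrophil attractant, was the 1 member with every anti-CSF1R library higher (−1.47, not past the test).

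Other monocyte genes and the neutrophil genes were not called. Of 15 monocyte genes 1 passed (Ccr2), and the median was 0.51. Of 20 neutrophil genes 0 passed (1 with the set term, Trem1), and S100a8 varied within groups from 339 to 845 TPM under IL-10-Fc and from 143 to 1362 TPM under anti-CSF1R. The neutrophil median was 0.83 between the lower-sum libraries and −0.19 between the higher-sum pair. Lcn2, a neutrophil and epithelial iron-binding protein, was at 363, 205 and 124 TPM under IL-10-Fc and at 387, 488 and 650 under anti-CSF1R, without passing the test (−1.24, SE 0.54).

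Genes known from osteoclasts were collected after their values had been seen, so their count is a description. Of 18 tested, 7 passed (0.542% of all genes tested were called higher) and 9 passed with the set term (2.12% of all genes). In 12 every IL-10-Fc library was higher (5.9% of all genes), and the differences ran from 0.011 to 3.52. All 18 were thus above 0 (66.6% of all genes were). Spp1, which osteoclasts can also express, was not on this list and had a difference below 0, given with the tumor lists below. Acp5, tartrate-resistant acid phosphatase (chr9:22126727-22135711), was at 305, 306 and 317 TPM under IL-10-Fc and at 50.1, 54.2 and 13.7 under anti-CSF1R (difference 3.17, SE 0.58). Atp6v0d2, a proton pump subunit needed for cell fusion, was at 11.1, 12.3 and 12.9 TPM against 0.585, 0.508 and 0.477 (difference 3.10, SE 0.51). The fusion proteins Dcstamp and Ocstamp, the receptor Oscar, the creatine kinase Ckb and the sodium/proton exchanger Slc9b2 had differences of 2.35, 2.93, 2.37, 3.08 and 3.52. Ocstamp was at 6.78, 6.62 and 9.48 TPM against 0.260, 0.0984 and 0.0217.

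Most of these calls ended when 1 of several libraries was left out. Ocstamp passed without any 1 library, while Acp5 lost its call in 10 of the 12 fits (adjusted p = 0.0556 to 0.2), Ckb in 10 (0.055 to 0.273), Slc9b2 in 9 (0.0595 to 0.215), Oscar in 9 (0.0514 to 0.182), Dcstamp in 8 (0.0519 to 0.180) and Atp6v0d2 in 6 (0.0652 to 0.122). Ctsk, the collagen-degrading cathepsin of osteoclasts, was at 257, 323 and 409 TPM under IL-10-Fc and at 69.5, 40.0 and 31.2 under anti-CSF1R, and passed with the set term only (2.84, adjusted p = 0.0491).

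Several of these were above control IgG in value in the IL-10-Fc tumors. Acp5 was at 133, 147 and 53.9 TPM in control IgG, and the difference of IL-10-Fc from control was 1.59 (adjusted p = 0.738), that of anti-CSF1R −1.57 (adjusted p = 0.893). Every IL-10-Fc library exceeded every control library in 11 of the 18 genes, against 4.75% of all genes tested. The list was collected after these values were seen, so this count is a description and no support for a rise above control. No single gene of the list passed against control in either direction. The 2 contrasts share the control libraries, 2 of which are of the higher-sum set.

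**Figure D4:**
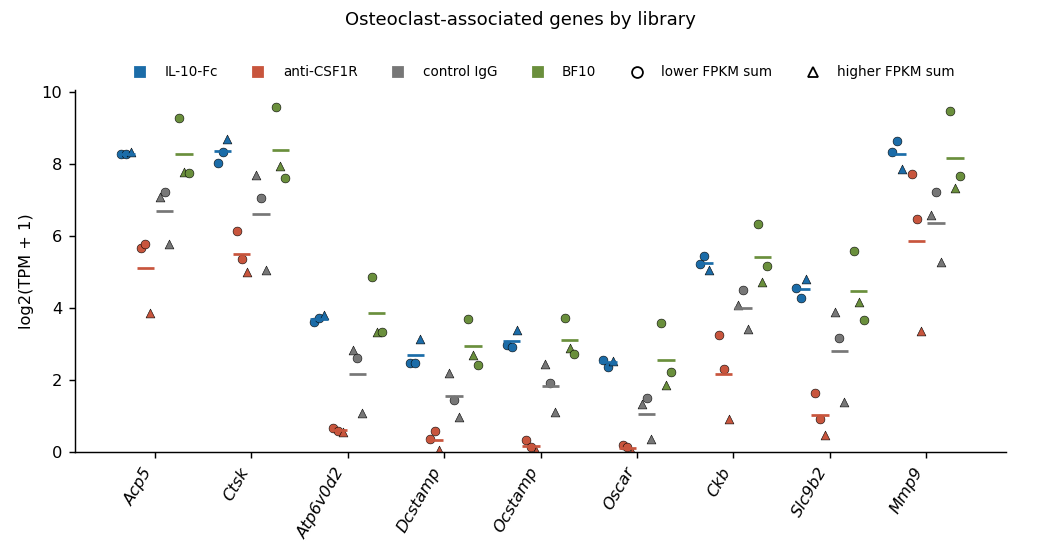
The y axis gives log2(TPM + 1) in all 12 libraries for 9 osteoclast-associated genes; bars are group means (n = 3) and triangles are higher-sum libraries. In all 9 genes every IL-10-Fc point lies above every anti-CSF1R point, narrowly in Mmp9, where the anti-CSF1R values run from 9.20 to 210 TPM and the IL-10-Fc values from 229 to 397 TPM.

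For the 84 called genes as a set, IL-10-Fc tumors stood close to control and anti-CSF1R tumors below it. Their median difference from control IgG was −0.15 for IL-10-Fc and −2.37 for anti-CSF1R, when all genes had medians of 0.35 and 0.24. Msr1, for example, was at 148, 103 and 114 TPM in control IgG, giving −0.21 for IL-10-Fc and −3.75 for anti-CSF1R (limma adjusted p = 0.738 and 6.4e-05). Gatm gave 0.41 and −3.65 (adjusted p = 0.743 and 0.0197), and C1qc −0.57 and −4.05 (0.738 and 2.1e-04). Over all genes, 1 passed between IL-10-Fc and control (Tmsb15a, lower, 0.00645%), and 88 passed between anti-CSF1R and control, all lower (0.568%). The 84 genes were chosen on the IL-10-Fc and anti-CSF1R libraries that these contrasts with control also use. The position of either group against control is therefore no independent result. Control IgG held more higher-sum libraries than either compared group, so both contrasts also carry the difference between library sets.

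No gene was called lower in IL-10-Fc in the limma fit, and the one nearest to it was Snord49b, at 0 in all IL-10-Fc libraries and 5.01, 5.26 and 3.78 TPM under anti-CSF1R (adjusted p = 0.0662). Next to it, mast cell proteases and a granzyme had the smallest p among protein-coding genes. Cma1, the chymase of connective tissue mast cells, was at 2.36, 4.66 and 1.52 TPM under IL-10-Fc and at 8.42, 15.6 and 33.1 under anti-CSF1R. Its difference of −2.27 (SE 0.56) had a limma adjusted p of 0.188, or 0.0583 with the set term. Mcpt1, a mucosal mast cell protease, was at 0.754, 1.94 and 1.57 TPM against 3.04, 50 and 27.8 (−2.93, SE 0.78, adjusted p = 0.296). It passed once anti-CSF1R 4 was left out (−4.02, adjusted p = 0.0104). Mcpt4 and Tpsb2 showed the same order, at 2.76, 6.52 and 2.59 TPM against 9.77, 17.0 and 64.6 for Mcpt4. A 5S ribosomal RNA copy, n-R5s29, had an unadjusted p of 0.0036 and was listed at 0 in all IL-10-Fc libraries.

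Of 8 mast cell and eosinophil genes, 7 were below 0, 5 did not overlap with IL-10-Fc lower and 1 did not overlap with IL-10-Fc higher (0.44), with a median of −1.86, compared with 1.6% of all genes non-overlapping in that direction. The whole list summed to 12.8 to 35.1 TPM under IL-10-Fc and 53.1 to 226 TPM under anti-CSF1R, and anti-CSF1R 8 held the largest sum. The median was −0.98 in the lower-sum libraries and −3.56 in the higher-sum pair, and it was −1.10 without anti-CSF1R 8. The chymase-type genes Cma1, Mcpt1 and Mcpt4 lie on chromosome 14 and resemble each other, so reads may be shared between them.

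Several granzymes, the serine proteases of cytotoxic lymphocytes, had differences below 0, again without a call. Gzmb was at 12.2, 20.7 and 12.6 TPM under IL-10-Fc and at 20.5, 71.2 and 53.2 under anti-CSF1R (−1.48, SE 0.47, limma adjusted p = 0.621). Gzmg was at 5.97, 13.4 and 10.1 TPM against 25.4, 177 and 56.6 (−2.64, SE 0.72, adjusted p = 0.322). Gzmc, Gzmd and Gzmf had differences of −1.95, −1.78 and −2.01, and these neighbors of Gzmg on chromosome 14 are similar enough in sequence for reads to be split among them. Of 14 cytotoxic effector genes 8 were below 0 (33.4% of all genes were), 3 were non-overlapping lower (1.6% of all genes were) and 0 passed. The median of −0.98 rested in part on anti-CSF1R 6, without which it was −0.32. Other members, such as the T cell and NK cell genes Nkg7, Gzmk, Ifng and Ccl5, were between 0.15 and 0.33.

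Type I interferon response genes leaned the same way. All 20 were below 0, when 33.4% of all genes were, but 3 did not overlap (1.6% of all genes in that direction) and 0 passed in the limma fit or with the set term. Ifit3, an antiviral tetratricopeptide protein, was at 18.6, 24.8 and 17.5 TPM under IL-10-Fc and at 38.14, 75.4 and 69.5 under anti-CSF1R (−1.50, SE 0.50, adjusted p = 0.705), and its relative Ifit1 was at −1.15 (SE 0.53). The median was −0.55, and it ranged from −1.09 without anti-CSF1R 8 to −0.09 without anti-CSF1R 6. Between the lower-sum libraries it was −0.76 and between the higher-sum pair −0.01. The 25 interferon gamma response genes showed no such lean, with 15 above and 10 below 0 and a median of 0.04 that turned to −0.16 with median of ratios scaling.

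**Figure D5:**
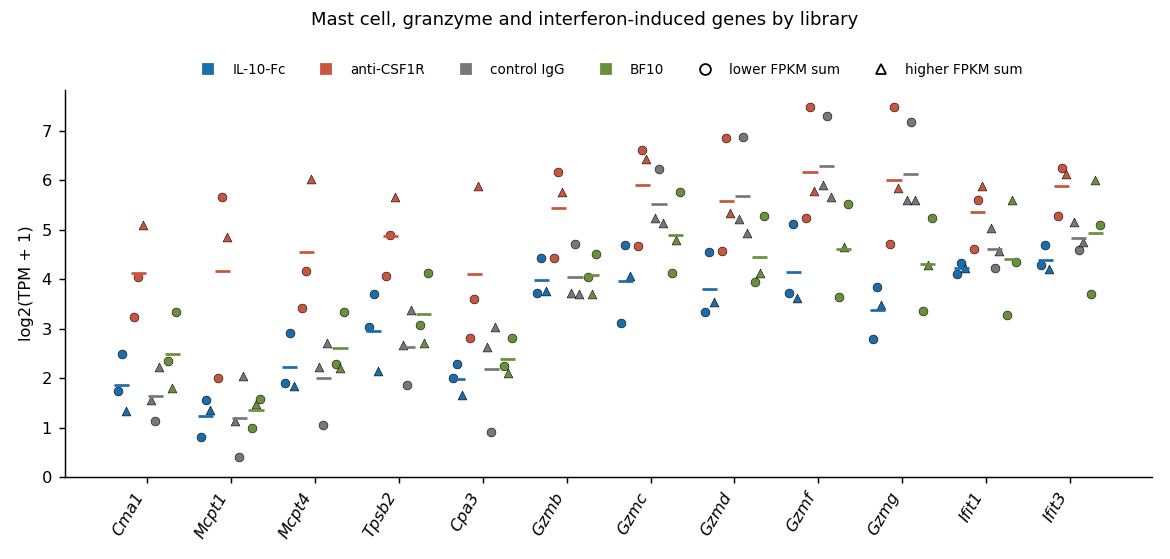
The y axis gives log2(TPM + 1) in all 12 libraries for mast cell proteases, granzymes and 2 interferon-induced genes; bars are group means (n = 3) and triangles are higher-sum libraries. Anti-CSF1R points lie above most IL-10-Fc points and spread widely, and none of the 12 genes passed in the limma fit.

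T cell and antigen presentation genes did not separate the groups at this spread. Of 17 T cell genes 0 passed, with 16 above 0 and a median of 0.41, and Cd8a was at 7.98, 7.74 and 4.09 TPM under IL-10-Fc and at 5.22, 6.02 and 1.35 under anti-CSF1R (0.65, SE 0.46). Of 10 MHC class II genes 0 passed (median 0.60), and H2-Aa was at 1532, 1637 and 1405 TPM against 877, 884 and 1696. Cd74 varied with the library set, at 725 and 310 TPM in the higher-sum libraries, and from 1480 to 2644 elsewhere. Of 13 MHC class I and immunoproteasome genes 0 passed (median 0.14, or −0.06 with median of ratios scaling). No member passed among 7 regulatory T cell genes (median −0.08), 14 checkpoint genes (0.48, 3 with the set term) or 7 B cell and plasma cell genes (0.25). In the NK cell list the 1 call of 8 was Fcer1g, which myeloid cells express too. Of 12 dendritic cell genes 0 passed (2 with the set term, median 0.32). Of 16 genes in the expanded immune signature that the study uses, 0 passed and the median was 0.37.

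Innate sensors showed differences that depended on the set term. Of 15 Toll-like receptor genes 0 passed and 5 passed with the term, with a median of 0.70. Of 18 inflammatory cytokine and inflammasome genes, the adaptor Pycard passed (2.07, SE 0.26), at 18.7, 22.5 and 23.1 TPM under IL-10-Fc and 4.71, 3.66 and 4.63 under anti-CSF1R, and 6 passed with the term. Pycard lost its call without IL-10-Fc 4 alone (adjusted p = 0.0564). Arg1, arginase of alternatively activated macrophages, was 1 of those 6, at 401, 346 and 143 TPM against 76.9, 60.2 and 22.7 (2.49, limma adjusted p = 0.141, or 9.2e-04 with the term). Apoe, the macrophage apolipoprotein, was another gene called with the term only, at 1726, 2094 and 705 TPM against 675, 407 and 48.4 (2.52).

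Lists for the tumor and its stroma gave no call. The fibroblast and collagen list had a median of 0.72 over 15 genes, which was 0.08 between lower-sum libraries, and the endothelial list one of 0.51 over 13, which was 0.18 there. Epithelial genes of the carcinoma (median 0.28, 11 genes), proliferation (0.26, 16), glycolysis and hypoxia (0.18, 16) and cholesterol synthesis (0.23, 13) moved to 0.00, −0.01, −0.22 and −0.11 in the lower-sum libraries. Between the higher-sum pair the fibroblast, endothelial and epithelial medians were 1.78, 1.08 and 0.98. Adipocyte genes had a median of −0.63 over 10 genes, with Adipoq at 0.174 to 47.1 TPM across the 6 libraries. Among 13 matrix metalloproteinases and inhibitors Mmp12 was the 1 call. Spp1, osteopontin, which macrophages, osteoclasts and 4T1 cells can all express, was at 3923, 3686 and 4147 TPM under IL-10-Fc and at 4119, 4419 and 13949 under anti-CSF1R (−0.69, SE 0.56), so it did not follow the other phagocyte genes.

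The remaining lists added few calls. The 17 scavenger and lipid-handling genes had a median of 0.54, with Msr1, Trem2 and Tyrobp called and Apoe added by the set term. Among 10 arginine and creatine genes Gatm was the 1 call (median 0.30), and among 11 genes that the study names in another tumor model Slamf9 was the 1 call (0.90). Erythrocyte genes (0.83, 5 genes), skeletal muscle genes (0.57, 3), keratinocyte genes (0.10, 3), mitochondrially encoded genes (−0.02, 13) and the 1 tested mammary secretory gene (−0.40) gave 0 calls. The 11 ligand and receptor genes of the treatments had 0 calls and 3 with the set term.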

How the data were processed

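Whole-tumor RNA was extracted with TRIzol, made into libraries with a stranded mRNA kit and sequenced on a NextSeq instrument. The authors deposited 1 table of FPKM values for 55401 genes in 12 libraries, and the program that computed FPKM is not given in the sources used here. The submitters' processing notes name STAR 2.7.5a, RSEM 1.3.3, DESeq2 1.28.0, mm10 and GRCm38, without roles. Columns that matched no sample numbered 0. Of 4 deposited tables with the authors' own DESeq2 comparisons (fold changes and p-values), none was used.

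Each column was rescaled to 1000000 (TPM), and genes with TPM of at least 1 in at least 3 libraries were kept. limma 3.58.1 in R 4.3.3 (eBayes with trend) was fitted to log2(TPM + 1) with 4 group means over all 12 libraries (8 residual degrees of freedom), and p-values were Benjamini-Hochberg adjusted over all tested genes. Fold changes are on the log2(TPM + 1) scale, which understates the change of low genes. The labels do not state that libraries came from separate animals, so p-values measure the spread between these samples. Depth was estimated from the size of 1 read in genes under 400 bases. The fit was tested on simulated data.

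Members and the 44 gene lists were chosen with earlier results of these data known, and 3 more lists (osteoclast-associated, eicosanoid, purinergic) after the values were seen. Named were the 12 called genes with the largest difference, or failing that the 5 smallest p, in each direction (no small RNA, pseudogene or unnamed model), up to 4 called or 2 most abundant genes per list, and the ligands and receptors. Others were chosen after their values were seen. Lists have no test. Coordinates are from GENCODE M21 (99.53% of gene IDs matched). Alternatives covered scaling, pseudocount, filter, library set, weights, eBayes options, minimum fold and each library left out. Some genes are not reported here.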

Additional observations from a re-analysis of the deposited data

How the results depend on the processing

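The count of 84 stayed within 1.5 times under the other scalings alone, a pseudocount of 0.1, both filters, eBayes without trend or robust, the lower-sum libraries alone and other minimum folds. It was 12 on the 6 libraries only, 330 with the library set as a term, 277 with median of ratios scaling and the set term, and 1970 with sample quality weights (961 higher, 1009 lower); the cause was not tested. Leaving out 1 library gave 24 to 92 calls, and 194 to 337 with the set term, among them 233 without IL-10-Fc 2 or anti-CSF1R 8, 239 without IL-10-Fc 4 and 213 without anti-CSF1R 6 (chosen after seeing the data, as was the combined fit). With the set term 17 genes were lower in IL-10-Fc without anti-CSF1R 4, and 6 without anti-CSF1R 8, Oas2 and Oas3 among these 6. The fit with median of ratios scaling and the set term called 4 lower, Tslp and Eml5 among them. Although the count was alike, only 42 of the 84 genes were also called with TMM scaling and 34 with median of ratios scaling. The macrophage median stayed between 1.73 and 2.68. Among 46 called genes named in the text, each that passed the filter stayed higher in IL-10-Fc under every alternative; 46 were called with the set term, 27 with TMM scaling, 23 with median of ratios scaling and 26 in the lower-sum libraries. No paired analysis was possible because the groups share only the replicate number 4.

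Reversals of single named genes were limited to genes with differences near 0 or with wide ranges between fits. Some list medians also fell below 0 without anti-CSF1R 8, among them glycolysis and hypoxia (−0.47), arginine and creatine (−0.30) and cholesterol synthesis (−0.24). Csf1 turned to −0.23 in the lower-sum libraries, −0.30 with weights and −0.17 with the set term without IL-10-Fc 7, and ranged from −0.54 to 0.88 in fits without 1 library. Il34 turned to −0.027 unscaled, −0.16 with TMM, −0.19 with median of ratios scaling with or without the set term, −0.23 in the lower-sum libraries, −0.22 with weights and −0.079 and −0.22 with the set term without IL-10-Fc 7 or anti-CSF1R 8, and ranged from −0.48 to 0.29 without 1 library. Il10 turned to 0.061 with weights, Csf2 to −0.0015 with the set term without anti-CSF1R 8, Csf3r to −0.084 with the set term without IL-10-Fc 7 and S100a8 to −0.23 with it without anti-CSF1R 6. Without 1 library Csf3r ranged from −0.36 to 0.76 and S100a8 from −0.30 to 1.32.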

Other observations

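Called genes outside the lists included enzymes and receptors of eicosanoids, the lipid mediators made from arachidonic acid. Tbxas1, thromboxane synthase, was at 18.4, 13.8 and 11.8 TPM under IL-10-Fc and at 2.45, 2.05 and 0.662 under anti-CSF1R (log2 difference 2.57, SE 0.33, limma adjusted p = 0.00584). Hpgds, hematopoietic prostaglandin D synthase, was at 5.48, 4.94 and 4.67 TPM against 1.46, 0.508 and 0.195 (1.87, SE 0.29), and Cysltr1, a leukotriene receptor, at 6.67, 7.65 and 8.97 TPM against 1.14, 1.00 and 1.26 (2.03, SE 0.36). Of 9 genes collected for this pathway after these values were seen 3 passed (0.542% of all genes tested were called higher), and this count is a description. The cyclooxygenase gene Ptgs2 was at −0.22. Tbxas1 passed without any 1 library, and Hpgds and Cysltr1 lost their calls in 4 and 8 of 12 such fits (adjusted p up to 0.105 and 0.199).

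A second group encodes receptors of nucleotides or of phospholipid relatives that are well known from microglia. P2ry12 was at 5.42, 6.28 and 6.73 TPM under IL-10-Fc and at 1.17, 0.804 and 0.911 under anti-CSF1R (1.86, SE 0.25). P2ry13 was at 5.04, 4.21 and 3.28 TPM against 0.602, 0.623 and 1.12 (1.54, SE 0.24), and Gpr34 at 5.67, 5.91 and 6.55 TPM against 0.488, 0.295 and 0.857 (2.20, SE 0.31). All 8 genes of a purinergic list chosen after seeing the data, Gpr34 included, were above 0 (66.6% of all genes were). Of them 3 passed (0.542% of all genes tested were called higher), and this count is a description. The calls of P2ry12, P2ry13 and Gpr34 were lost in 3, 5 and 4 of the 12 fits that left out 1 library, at adjusted p up to 0.0713, 0.128 and 0.0713.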
